A study of Xenopus tropicalis with 3 samples.

Results

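The planar cell polarity core genes were followed through the formation of the mucociliary epidermis of Xenopus tropicalis, per transcript and summed per gene. Members were chosen by name, as the vangl, prickle, celsr and frizzled genes of the core pathway. Of 10 genes named, 8 were found among the 17647 genes of the deposited table: vangl2, prickle1, prickle2, prickle3, celsr1, celsr2, celsr3 and fzd6, with 23 listed transcripts among 35047 rows. The genes vangl1 and fzd3 were not analysed here.

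Total RNA came from manually dissected animal caps, the roof of the embryo that is labelled prospective epidermis, at 3 stages of normal development numbered after Nieuwkoop and Faber. NF10.5 is labelled gastrula, NF16 is labelled neurula, and the latest, NF24, is labelled tailbud. No treatment or genotype is given other than the dissection, and the labels do not say at what age the caps were cut. Each stage has 3 biological replicates per the labels, and the table gives 1 column per stage, taken as the authors' mean over those replicates. No spread between replicates is therefore known for any value, no test between stages was possible, and the depth is unknown.

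Planar cell polarity is the alignment of cells within the plane of an epithelium. Its core proteins sort to opposite sides of each cell: a Frizzled receptor with Dishevelled on one side, the 4-pass membrane protein Vangl with its cytoplasmic partner Prickle on the other, and Celsr, a large cadherin, bridging neighbouring cells. In Xenopus proteins of this pathway are known for aligning the beat of the multiciliated cells of the epidermis and, earlier, for the cell intercalation that narrows and lengthens the gastrula.

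FPKM scales fragment counts to transcript length and library size, so levels can be compared between genes per length. Stage differences are given on the log2(FPKM + 1) scale, with a gene called higher or lower at a difference of at least 1 in size, which is a description by size and not a test. The 11771 genes that reached 1 FPKM at some stage were compared, and all 8 members were among them.

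Markers of epidermis, multiciliated cells and ionocytes had higher summed FPKM at NF16 and NF24 than at NF10.5. The summed FPKM of 10 epidermal marker genes was 1663, 23059 and 27999 in stage order, and 7 of the 9 compared were called higher at NF16 than at NF10.5. That of 7 multiciliated cell markers was 95.4, 2726 and 1846 FPKM, and that of 4 ionocyte markers 78.4, 579 and 577 FPKM. At NF16 and NF24 most of the epidermal sum was krt5.7, with 17079 and 22588 FPKM. Most of the multiciliated cell sum at these stages was tuba1a, with 2287 and 1545 FPKM. In NCBI's gene naming its transcript belongs to tuba1cl.3, and the planned marker tuba1a also took in the gene named tuba1b. Genes listed as markers of other tissues were also present, and whether they mark those tissues at each stage was not tested. The sum of 8 neural markers was 1019, 150 and 83.1 FPKM, that of 5 endoderm markers 83.6, 8.47 and 7.60 FPKM, that of 10 mesoderm, notochord and muscle markers 85.4, 256 and 332 FPKM, and that of 5 neural crest markers 11.7, 29.7 and 27.3 FPKM. At NF16 against NF10.5, 3 neural markers were called higher and 3 lower, and the neural sum rested mostly on sox3 and sox2, while the median level of the list was 2.56 FPKM in the gastrula and 5.25 FPKM in the neurula. In the same step 4 mesoderm, notochord and muscle markers were higher and 3 lower, 3 neural crest markers were higher and 1 lower, and 0 endoderm markers were higher and 4 lower, beside 20.9% higher and 39.0% lower over all genes compared. In these lists the only gene listed at 0 at any stage was the keratin krt5.5, at NF10.5. In RNA of whole caps, fewer cells of a type and less RNA per cell cannot be told apart.

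The makeup of the core gene set differed between gastrula and neurula. The 8 members added to 192 FPKM at NF10.5, 201 FPKM at NF16 and 153 FPKM at NF24. At NF10.5 prickle1 alone held 60.9% of that sum. At NF16 its share was 5.31%, and celsr1 and fzd6 led with 29.4% and 27.2%. They also led at NF24, with 26.5% and 23.2%.

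**Figure D1:**
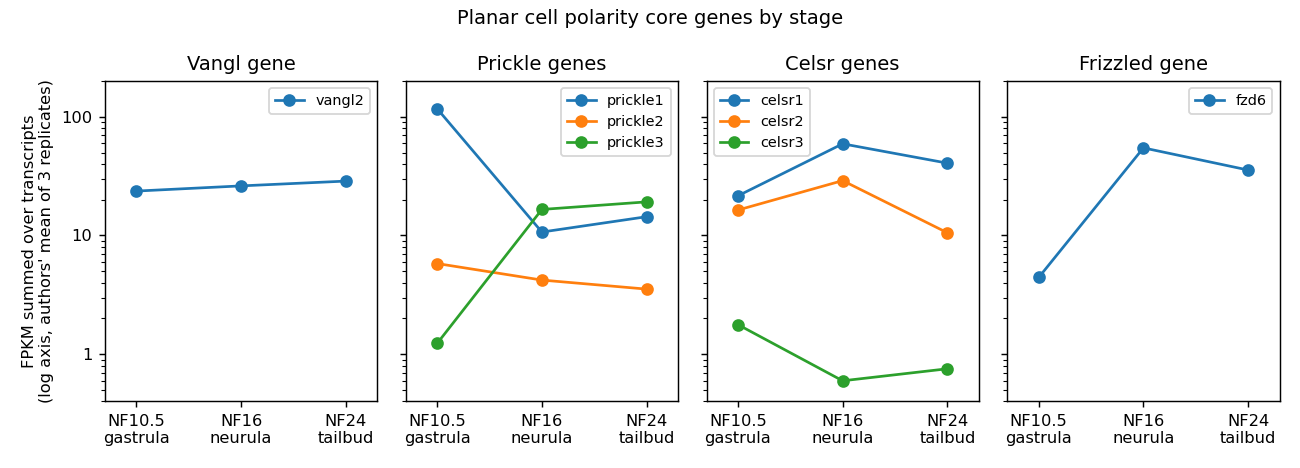
Level of each member at NF10.5, NF16 and NF24, as FPKM summed over transcripts on a log axis, 1 panel per family. Each point is the authors' mean, with no error known. Between NF10.5 and NF16 prickle1 goes from 117 to 10.7 FPKM, prickle3 from 1.23 to 16.6 FPKM and fzd6 from 4.43 to 54.7 FPKM, and vangl2 lies between 23.7 and 28.7 FPKM at all stages.

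In the step from gastrula to neurula, 3 of 8 members were called higher (celsr1, prickle3 and fzd6) and 1 lower (prickle1). Over all 11771 genes compared, 20.9% were called higher and 39.0% lower. The median log2 difference was 0.46 over the members and -0.57 over all genes. Median-of-ratios scaling, which equalises the typical gene between stages, moved the median of all genes by 0.54 in this step and gave 3279 genes higher and 2854 lower, against 2466 and 4586 as deposited. Under that scaling 4 members were higher and 1 lower.

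From neurula to tailbud, 0 members were called higher and 1 lower (celsr2), beside 6.91% of all genes higher and 4.84% lower (813 and 570 genes, or 633 and 785 after median-of-ratios scaling). The median was -0.04 over the members and 0.12 over all genes. Between the outer stages, NF24 against NF10.5, 2 members were higher (prickle3 and fzd6) and 1 lower (prickle1). Over all genes, 25.4% were higher and 36.9% lower (2984 and 4342, or 3624 and 3103 after that scaling). Under that scaling 3 members were higher, with celsr1 added, and 1 lower. This last comparison shares its samples with the other comparisons.

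**Figure D2:**
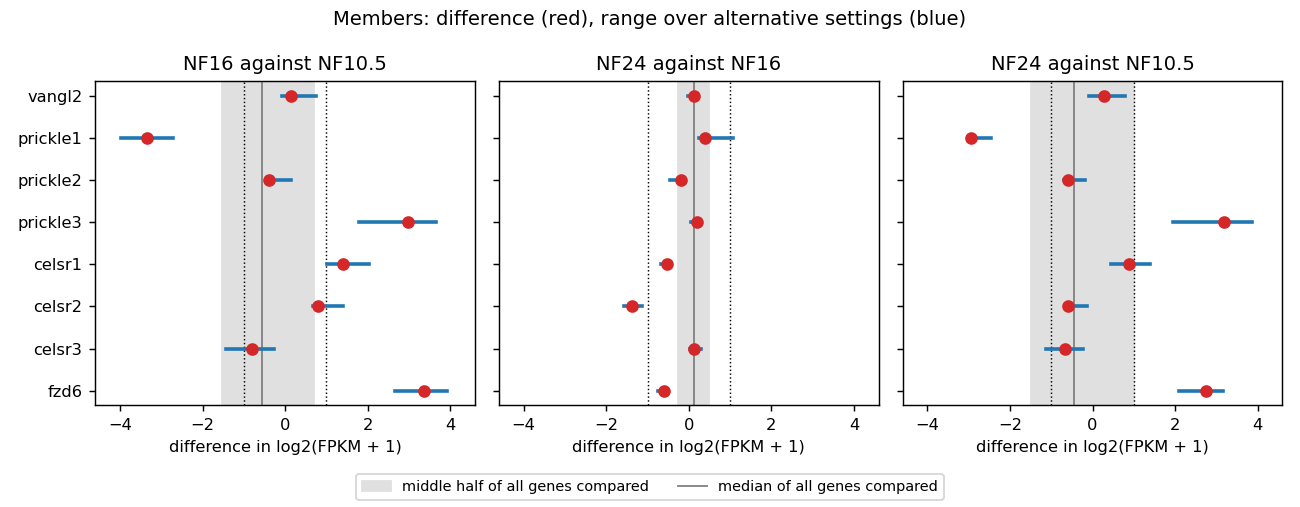
Difference in log2(FPKM + 1) of each member in the 3 comparisons. Red points give the value as deposited, blue bars the range over the alternative settings, the grey band the interquartile range and the grey line the median of all genes compared, and dotted lines the threshold of 1 in size. Prickle1 lies at -3.33, prickle3 at 2.98 and fzd6 at 3.36 in the first panel, and no bar of these genes crosses the threshold there.

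Fzd6, the one Frizzled receptor of the core set measured, stood at 4.43 FPKM at NF10.5, 54.7 FPKM at NF16 and 35.6 FPKM at NF24. The NF16 level was 12.3-fold that of NF10.5. On the log2(FPKM + 1) scale the difference was 3.36, which exceeded that of 94.7% of the genes compared. From NF16 to NF24 the difference was -0.61, not called. Both of its detected transcripts moved alike. XM_012964415.1 had 1.63, 22.9 and 16.5 FPKM and XM_012964416.1 had 2.80, 31.8 and 19.1 FPKM at the 3 stages in order, and NM_001251880.1 was listed at 0 throughout. The share of XM_012964416.1 in the gene was 63.2% at NF10.5 and 53.7% at NF24.

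Among the 9 Frizzled genes of the table, the most abundant at NF10.5 was fzd7, a receptor known in Xenopus for both canonical and non-canonical Wnt signalling. Its levels were 214, 32.9 and 25.7 FPKM in stage order, which was 71.0%, 15.5% and 16.2% of the summed Frizzled FPKM. The share of fzd6 was 1.47%, 25.7% and 22.5%, so fzd6 ranked 6th at NF10.5 and 1st at the later stages. Fzd8 had 16.2, 44.5 and 35.0 FPKM and was also called higher as deposited, at NF16 (1.40) and NF24 (1.06) against NF10.5. It was close behind fzd6 at the later stages, and at NF24 the levels of fzd6 and fzd8 differed by less than 1 FPKM. Fzd4 had 14.0, 13.9 and 5.58 FPKM and was called lower at NF24 than at NF16 (-1.18) and NF10.5 (-1.19). Both of these calls were lost with a pseudocount of 5. The second was also lost under median-of-ratios (-0.74) and quantile scaling (-0.94). The ratio of fzd6 to fzd7 within a stage does not change when all genes of a stage are scaled by 1 factor, and as deposited it was 0.0207, 1.66 and 1.39 at the 3 stages in order.

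Celsr1, one of the bridging cadherins, stood at 21.6 FPKM at NF10.5, 59.2 FPKM at NF16 and 40.7 FPKM at NF24. It was called higher at NF16 with a log2 difference of 1.41. The difference of NF24 against NF10.5 was 0.88 as deposited and not called, and was called under TPM, median-of-ratios and quantile scaling (1.09, 1.36 and 1.40 in that order). Of its 5 listed transcripts, 3 reached 1 FPKM. XM_004913001.3 led at every stage with 13.2, 27.8 and 18.4 FPKM, followed by XM_002932203.4 with 6.34, 21.1 and 13.4 FPKM and XM_018092314.1 with 2.06, 10.2 and 8.88 FPKM. The leading transcript's share was 61.1%, 46.9% and 45.2%, and that of XM_018092314.1 was 9.54%, 17.2% and 21.8%.

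Celsr2 had its highest value at NF16, with 16.4, 29.0 and 10.54 FPKM in stage order. The log2 difference of 0.79 in the first step was not called as deposited but was under median-of-ratios (1.39) and quantile scaling (1.34). The difference of -1.38 in the second step made it the one member called lower there, and 98.0% of the genes compared had a higher value. Nearly all of its FPKM lay in XM_002932136.4, with 97.8%, 98.7% and 100% of the gene. The ratio of celsr1 to celsr2 was 1.32, 2.04 and 3.86 in stage order.

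Celsr3, which is best known from axon guidance in the mouse, stayed low, at 1.77 FPKM at NF10.5, 0.597 FPKM at NF16 and 0.753 FPKM at NF24. None of its differences was called as deposited. Its 2 transcripts each stayed below 1 FPKM, and no shares are given where the gene itself was below 1 FPKM.

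The order of the Prickle genes differed between the gastrula and the later stages. At NF10.5 prickle1 led with 117 FPKM, followed by prickle2 with 5.80 and prickle3 with 1.23. At NF16 prickle3 led with 16.6 FPKM, followed by prickle1 with 10.7 and prickle2 with 4.21. The order was the same at NF24, with 19.2, 14.4 and 3.53 FPKM. With prickle4 counted in, a family gene outside the member list at 5.05, 3.40 and 3.51 FPKM, prickle1 held 90.6%, 30.7% and 35.4% of the summed Prickle FPKM and prickle3 held 0.957%, 47.5% and 47.2%. The ratio of prickle1 to prickle3 within a stage was 94.7, 0.645 and 0.75.

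**Figure D3:**
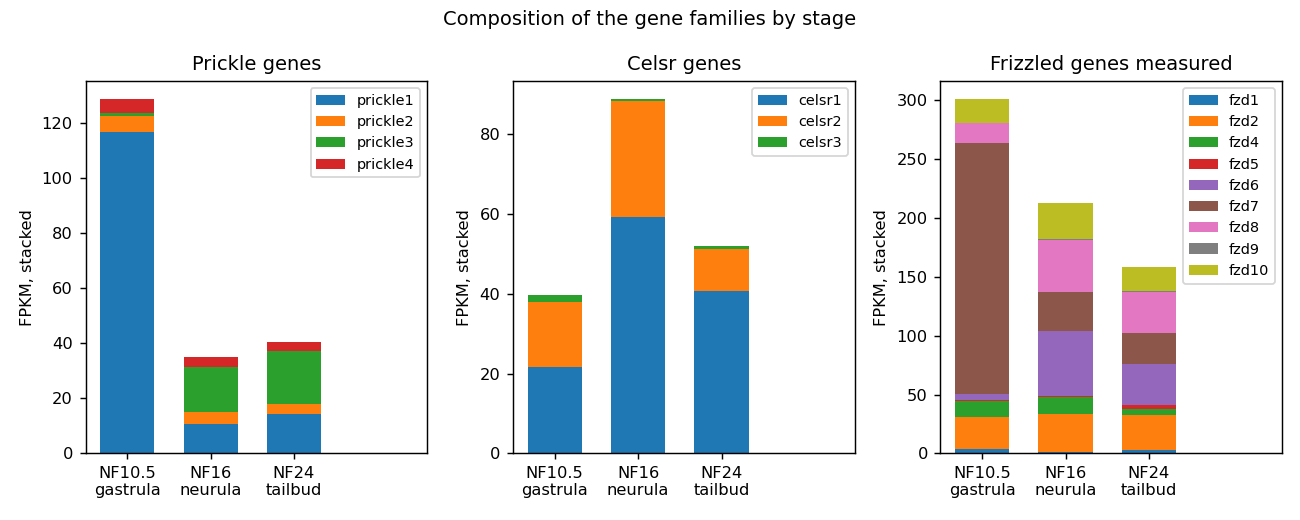
Stacked FPKM of the Prickle, Celsr and measured Frizzled genes at each stage, on linear axes from 0. Prickle1 and fzd7 make up 90.6% and 71.0% of their families at NF10.5, and prickle3 and fzd6 are the most abundant members of theirs at NF16 and NF24.

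Prickle1, the LIM-domain partner of Vangl that is known in Xenopus for gastrula cell movements, was 10.9-fold lower at NF16 than at NF10.5. The log2 difference was -3.33, and 98.45% of the genes compared had a higher one. Genes listed as markers of other tissues went both ways in the same step. Among those called lower, sox3 of the neural list had 793, 89.3 and 28.1 FPKM and sox2 had 199, 37.3 and 22.1 FPKM. The gene named not, listed under mesoderm, notochord and muscle, had 40.2, 3.29 and 3.33 FPKM. Of 5 endoderm markers 4 were lower, beside 39.0% of all genes. Among those called higher, the neural marker ncam1 had 0.347, 4.06 and 5.23 FPKM, the heart marker nkx2-5 had 0.0867, 96.5 and 92.3 FPKM and the muscle marker actc1 had 0.647, 50.2 and 93.2 FPKM. Whether these genes mark such tissues in the gastrula cap was not tested, nor was the part of the tissues in the prickle1 difference. The mesoderm marker t (brachyury) had 30.1, 24.04 and 5.89 FPKM.

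The transcripts of prickle1 followed different courses. XM_012959068.2 had 100.6 FPKM at NF10.5, 5.21 FPKM at NF16 and 1.72 FPKM at NF24. NM_001016939.1 had 16.2, 5.48 and 12.7 FPKM. Both were thus lower at NF16 than at NF10.5, the first by a factor of 19.3 and the second by a factor of 2.96. In the second step they went in opposite directions on the log2 scale, -1.19 for XM_012959068.2 and 1.08 for NM_001016939.1, and the gene sum differed by only 0.40.

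The share of XM_012959068.2 in prickle1 was 86.1%, 48.8% and 11.9% in stage order, with NM_001016939.1 holding the rest. The share of NM_001016939.1 was 37.4 percentage points higher at NF16 than at NF10.5 and 74.2 points higher at NF24 than at NF10.5. The rule was that the new leader gains and the old one loses at least 30 points. By it, prickle1 was the 1 member of 7 with a change of leader in each of these comparisons. From NF16 to NF24, 0 of 7 changed. That prickle1 changes its leading transcript was known when this part was chosen, so these counts are a description and not a test. Over all genes with at least 2 transcripts and 1 FPKM at both stages, 6.73%, 8.40% and 1.93% changed leader in NF16 against NF10.5, NF24 against NF10.5 and NF24 against NF16. At NF16 the leader was ahead by 5.48 to 5.21 FPKM, a gap with no known error. How the authors' software divided reads between overlapping transcripts cannot be checked from FPKM.

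**Figure D4:**
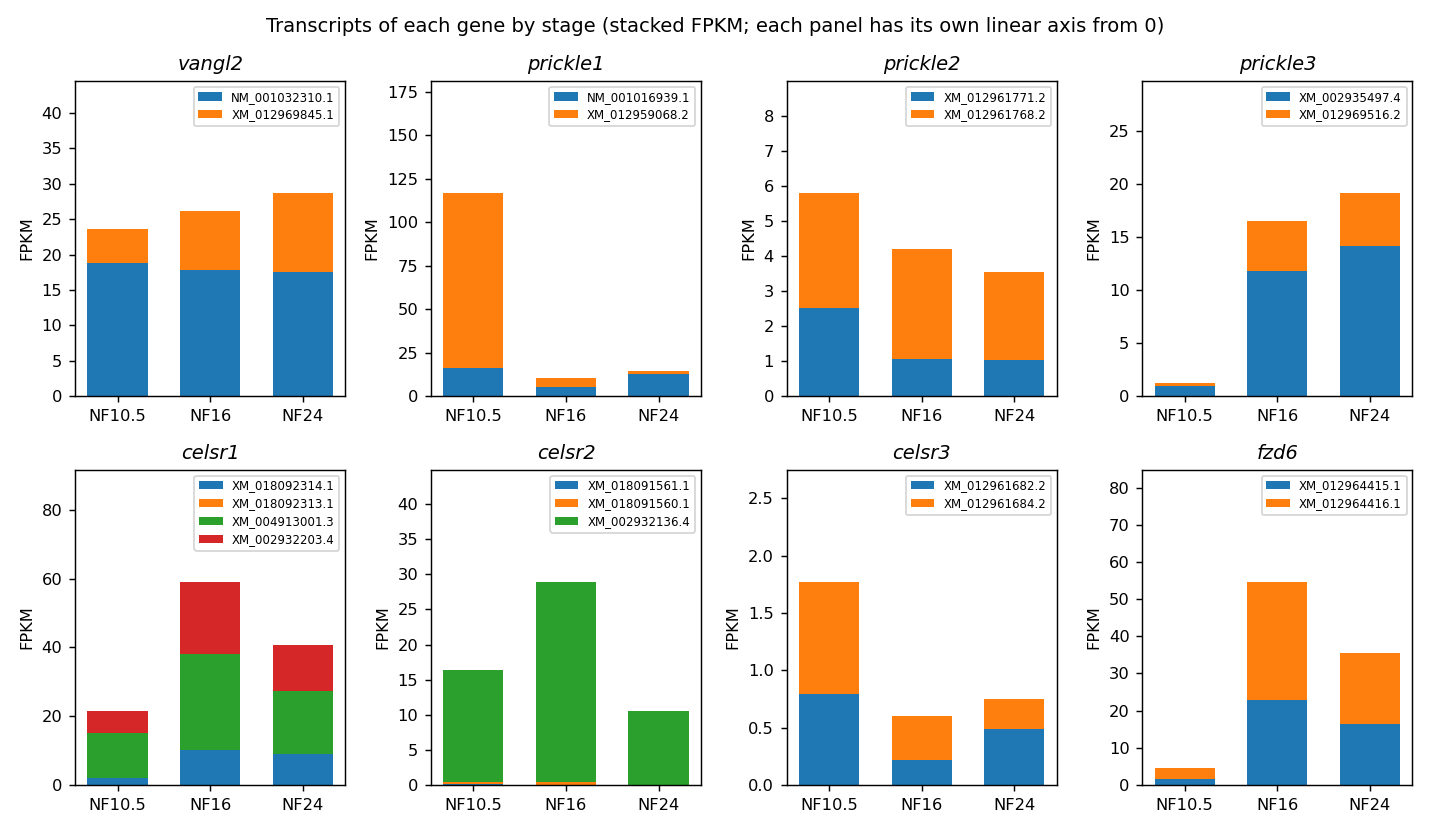
FPKM of each transcript listed above 0, stacked by gene and stage, each panel with its own linear axis. In prickle1 the orange part, XM_012959068.2, goes from 100.6 to 1.72 FPKM between NF10.5 and NF24 while the blue part, NM_001016939.1, is at 16.2 and 12.7 FPKM.

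Prickle3, a paralogue of prickle1, stood at 1.23 FPKM at NF10.5, 16.6 FPKM at NF16 and 19.2 FPKM at NF24. The NF16 level was 13.4-fold that of NF10.5, where the value was low. On the log2(FPKM + 1) scale the difference was 2.98, which exceeded that of 93.4% of the genes compared. It was 1.79 with a pseudocount of 5 and 3.64 with one of 0.1, and was called with each. The second step differed by 0.20. XM_002935497.4 held 74.3%, 71.5% and 73.8% of the gene and XM_012969516.2 the rest, so its transcripts kept nearly equal proportions while the level differed. XM_004916697.3 was listed at 0.

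Prickle2 had 5.80, 4.21 and 3.53 FPKM, with no difference called. Its log2 difference of -0.38 in the first step was 0.14 under median-of-ratios scaling, so no direction is given. XM_012961768.2 held 56.7% of it at NF10.5 and 74.5% at NF16.

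Vangl2, the membrane protein at the centre of the Vangl and Prickle complex, varied least of the members that reached 10 FPKM. It had 23.7, 26.2 and 28.7 FPKM at NF10.5, NF16 and NF24, with log2 differences of 0.14 and 0.13 in the 2 steps. The first lay 0.71 above the median of all genes, and it was -0.06 when only the highest transcript was used and 0.75 under median-of-ratios scaling, none of them called. Within the gene, NM_001032310.1 had 18.7, 17.9 and 17.6 FPKM, and XM_012969845.1 had 4.92, 8.29 and 11.1 FPKM. The share of XM_012969845.1 was 20.8%, 31.7% and 38.8%. Its log2 difference of 1.04 between NF10.5 and NF24 was called, just past the threshold. As for prickle1, how reads were divided between the transcripts cannot be checked. Set against vangl2 within a stage, prickle1 was at 4.94, 0.408 and 0.501 times its level, fzd6 at 0.187, 2.09 and 1.24 times and celsr1 at 0.912, 2.26 and 1.42 times.

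Taken per transcript, 14 of the 23 listed reached 1 FPKM. Of these, 7 were called higher and 2 lower at NF16 than at NF10.5, beside 20.5% and 36.5% of all 19990 transcripts compared. The 7 were the transcripts of celsr1, prickle3 and fzd6 that reached 1 FPKM, and the 2 were those of prickle1. From NF16 to NF24, 1 was higher and 2 were lower, beside 7.40% and 5.86%. At NF24 against NF10.5, 6 were higher and 1 was lower, beside 24.6% and 35.6%.

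Epidermal and multiciliated cell markers were higher in the same step as fzd6, prickle3 and celsr1. All 4 ionocyte markers and 6 of 7 multiciliated cell markers were called higher at NF16, beside 20.9% of all genes. The 7 include tuba1a and tuba1b, both called higher, which were matched to the same planned marker. Among the multiciliated cell markers tekt2, a tektin of motile cilia, had 1.31, 173 and 206 FPKM. The cilium regulator foxj1 had 47.9, 98.9 and 58.9 FPKM and was called higher at NF16 by a log2 difference of 1.03. From NF16 to NF24, 3 of the 7 multiciliated markers were called lower, beside 4.84% of all genes. They were mcidas (1.23, 50.9 and 2.78 FPKM), ccno (25.8, 50.3 and 5.45 FPKM) and foxn4 (1.12, 56.4 and 8.05 FPKM). At NF24 against NF10.5, 4 of the 7 were called higher and 1 lower (ccno), beside 25.4% and 36.9% of all genes. The part of these cell types in the differences of the core genes was not tested.

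The wider pathway was read from a list of 54 genes, of which 36 were compared. In the step to NF16, 4 were called higher and 9 lower, beside 20.9% and 39.0% of all genes. After median-of-ratios scaling the split was 12 to 8, beside 3279 to 2854 over all genes. After quantile normalization it was 8 to 8, beside 2760 to 3494 over all genes. The median was -0.03 as deposited, against -0.57 over all genes. From NF16 to NF24, 0 were higher and 2 lower, beside 6.91% and 4.84% of all genes. With TPM the counts were 2 and 2, beside 1227 and 626 over all genes. Between the outer stages 5 were higher and 11 lower, beside 25.4% and 36.9% of all genes. The counts were 7 and 7 after median-of-ratios scaling, 5 and 7 after quantile normalization and 8 and 11 with TPM. Over all genes they were 3624 and 3103, 3074 and 3752, and 3417 and 4070 in that order.

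Of 3 ligands compared, 1 was called higher and 1 lower at NF16. Of 6 co-receptors 0 were higher and 2 lower, beside the same 20.9% and 39.0% over all genes. The listed ligands wnt5a and wnt5b and the co-receptor ptk7 were not analysed here, so these counts do not cover the whole pathway. The ligand not called, wnt11r, had 0.183, 0.133 and 1.12 FPKM. The gene listed as wnt11, a ligand known to drive gastrula movements in Xenopus, had 55.6, 7.05 and 4.78 FPKM in stage order. Its 2 transcripts belong to separate RefSeq loci, so how reads were divided between them is uncertain. Wnt4 was low but called higher at NF16, with 2.17, 6.03 and 5.69 FPKM, and was not with a pseudocount of 5 (0.62). Among co-receptors ryk had 65.3, 19.6 and 19.5 FPKM and gpc3 had 13.2, 3.11 and 1.04 FPKM, both called lower at NF16. Gpc3 was also called lower at NF24 than at NF16 (-1.007), just past the threshold, and was not with a pseudocount of 5. The glypican gpc4 (100.7, 78.2 and 70.2 FPKM) and the receptor kinase ror2 (27.7, 23.0 and 19.0 FPKM) were not called in any comparison.

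Cytoplasmic partners were called lower at NF16 in 5 of 7 compared genes and higher in 0, with a group median of -1.94, beside 39.0% lower, 20.9% higher and a median of -0.57 over all genes. Sec24b, a coat protein needed in mice for the export of Vangl2 to the cell surface, had 63.8, 7.83 and 12.9 FPKM. The ubiquitin ligase smurf1, which acts on Prickle1 in mice, had 40.4, 6.71 and 8.90 FPKM. Dact1, a Dishevelled-binding protein, had 182, 35.3 and 25.1 FPKM, and gipc1 had 70.2, 17.5 and 26.7 FPKM. Of the Dishevelled genes dvl3 was the most abundant, with 54.6, 30.3 and 20.2 FPKM, dvl2 had 17.3, 6.71 and 6.63 FPKM, and dvl1 stayed below 1 FPKM. Dvl2 was called lower at NF16 as deposited, at -1.25, and was not under median-of-ratios (-0.66) or quantile scaling (-0.69) or with a pseudocount of 5 (-0.93). Between the outer stages dvl3 (-1.39) and dvl2 (-1.27) were called lower as deposited. Neither was under median-of-ratios (-0.91 and -0.81) or quantile scaling (-0.92 and -0.94), and dvl2 was also not called with a pseudocount of 5.

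Effectors downstream of the core were called higher in 1 of 10 cases and lower in 0 at NF16, beside 20.9% and 39.0% of all genes, with a median of 0.48. The called gene was the kinase rock1, with 6.24, 16.8 and 23.5 FPKM and was not called with a pseudocount of 5 (0.96). The ciliogenesis effectors intu and fuz had 6.62, 12.3 and 7.0 FPKM, and 9.03, 18.1 and 12.5 FPKM. Neither was called as deposited (0.80 and 0.93). Both were under median-of-ratios (1.36 and 1.51) and quantile scaling (1.23 and 1.44), and fuz was under TPM (1.08). The small GTPases rhoa, rac1 and cdc42 lay between 211 and 352 FPKM at all stages, with none called.

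In the Fat and Dachsous group, the large cadherin fat2 had 2.92, 58.2 and 90.7 FPKM in stage order. Its log2 difference of 3.91 in the first step was the highest of the list. The fat1 level was 21.3, 25.7 and 31.7 FPKM, and fat3, fat4 and dchs2 stayed below 1 FPKM. Fjx1, the homologue of fly four-jointed, had 4.12, 6.94 and 14.3 FPKM and was called higher between the outer stages.

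**Figure D5:**
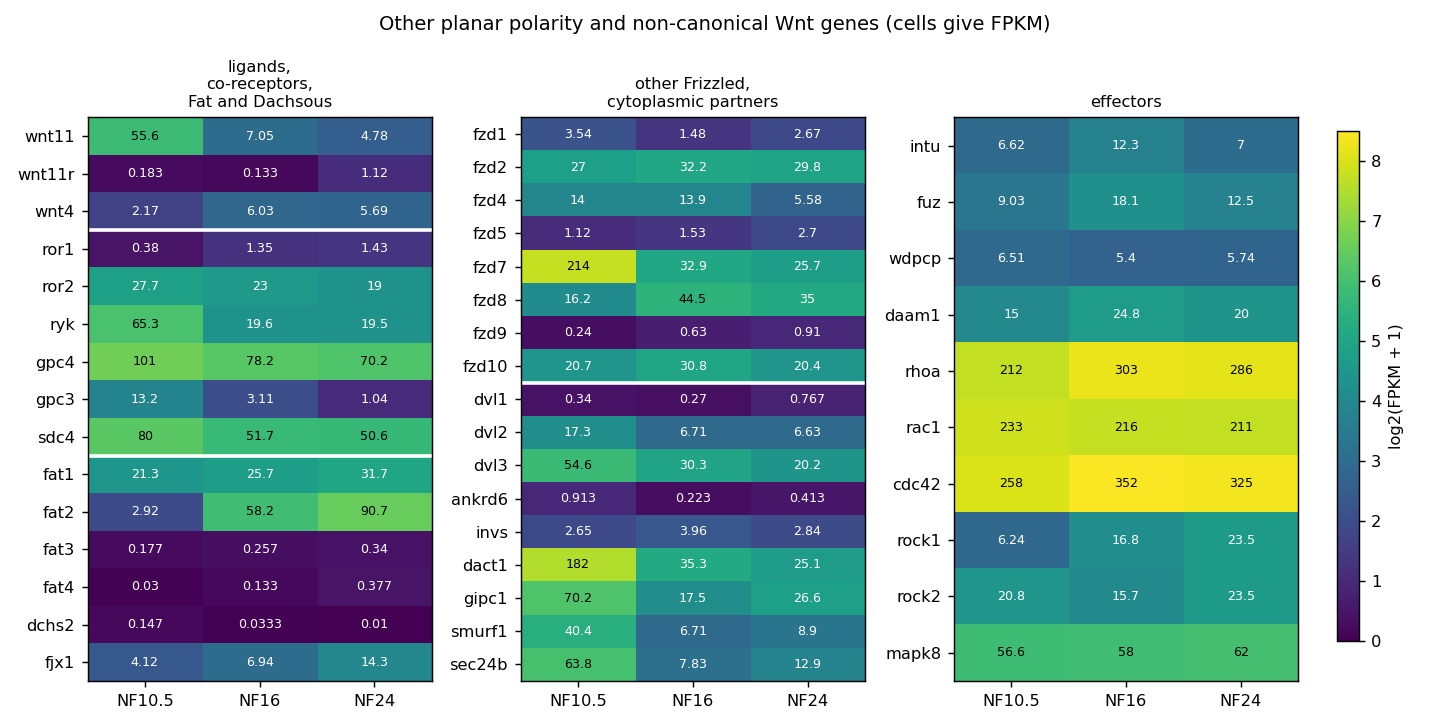
FPKM of the 42 other planar polarity and non-canonical Wnt genes found in the table, by group and stage, with colour giving log2(FPKM + 1) and white lines parting the groups named above each panel. The gastrula column is the highest of the 3 for fzd7, dact1, wnt11, sec24b and smurf1, and the lowest for fat2, fzd8 and rock1.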

How the data were processed

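The deposited table gives FPKM per RefSeq transcript, 1 column per stage, per the file headers. STAR 2.4.2a and RSEM 1.3.0 are named without settings in the submitters' processing notes, and the genome build is not given in the sources used here. All 83506 values above 0 are whole steps of 0.01/3, within a tolerance of 0.01 of a step, and are taken as the authors' means of 3 replicates. The planned limma fit needs replicate columns, so a threshold of size was used.

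A gene's value is the sum of FPKM over its transcripts, compared as log2(FPKM + 1). Of 35047 rows, 19 repeat a transcript, none of them a member's. Pathway genes and markers were matched by name or by accession to NCBI's gene table for UCB_Xtro_10.0, which holds 15 of the 23 member transcripts, and 42 of 54 pathway genes were found. Members and lists were chosen with earlier results of these data known. Named genes are all members, their transcripts at 1 FPKM or more, up to 4 called genes with at least 10 FPKM per pathway group, and the 3 genes nearest in level to the leading member of each family. Other genes, such as wnt4, ror2, gpc4, dvl1, dvl2, intu, fuz, fat1, prickle4, the GTPases and single markers, were named after their values were seen. Alternatives were other scalings, pseudocounts, filters, gene values and share thresholds. The computations were tested on simulated data, with Python 3.11.15, pandas 2.3.3 and numpy 2.4.6.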

Additional observations from a re-analysis of the deposited data

How the results depend on the processing

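The calls of prickle1, prickle3, celsr1 and fzd6 at NF16 against NF10.5 held under all 9 alternatives run. Of 210 recomputed member differences, 201 kept their call, 9 gained one and none lost one or changed the sign of a called value. Celsr3 could not be recomputed with a filter at 5 FPKM or from its highest transcript. Members called lower at NF16 numbered 2, not 1, under quantile normalization and with a pseudocount of 0.1, and 2, not 1, at NF24 against NF10.5 with that pseudocount. The added gene was celsr3. Members higher at NF24 against NF10.5 numbered 3, not 2, under TPM, median-of-ratios and quantile scaling, with celsr1 added. From its highest transcript prickle1 was called higher from NF16 to NF24, so 1 member was called higher there and not 0. With a threshold of 50 points, 0 members changed leading transcript at NF16 against NF10.5. Of the pathway list, genes higher at NF16 numbered 12 under median-of-ratios scaling, 8 under quantile normalization and 2 with a pseudocount of 5, against 4. From NF16 to NF24, 2 were higher under TPM and with a pseudocount of 0.1, against 0, and 0 were lower with a pseudocount of 5, against 2. At NF24 against NF10.5, 8 were higher under TPM and with a pseudocount of 0.1 and 3 with a pseudocount of 5, against 5, and 7 were lower under median-of-ratios and quantile scaling, against 11. The cause was not tested. Over all genes, 2854 were lower at NF16 under median-of-ratios scaling, against 4586. Genes higher in that step numbered 3279 under that scaling, 2760 under quantile normalization and 1664 with a pseudocount of 5, against 2466. From NF16 to NF24, the counts of 813 genes higher and 570 lower became 1343 and 980 with a pseudocount of 0.1 and 271 and 270 with one of 5, and 1227 were higher under TPM. At NF24 against NF10.5, 1974 genes were higher with a pseudocount of 5, against 2984. No paired analysis was possible because the table gives 1 mean per stage, and for the same reason no replicate could be left out. Values of genes near 1 FPKM are the least certain, and no detection limit can be given without counts.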

Other observations

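By level over the 3 stages, the genes nearest to the leading member of each family were found by the largest gap in log2(FPKM + 1) at any stage. With only 3 stages, many genes can lie close by this measure, so this is a description. Nearest to vangl2 was rdh7.2 (22.7, 27.6 and 29.9 FPKM, a largest gap of 0.07), followed by pard6b (23.7, 24.3 and 27.5 FPKM, 0.10) and cyth1 (0.14). Nearest to prickle1 was dph3 (106.7, 10.4 and 14.7 FPKM, 0.13), followed by smagp (0.15) and nsun2 (0.18). Celsr1 had c20orf27 (19.97, 60.01 and 39.9 FPKM, 0.11), lims1 (0.19) and six4 (0.23) nearest to it. Fzd6 had rcan1 (4.42, 53.3 and 31.5 FPKM, 0.17), daw1 (0.35) and slc9a3r2 (0.36).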
